A study of Homo sapiens with 1 sample.

Results

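The cytosolic ribosomal protein genes were followed in 1 single-cell RNA-seq library of hHAR123 cells. A gene was taken as a member when its symbol began with RPS or RPL and continued with a subunit number, with an optional A, X or L and a last digit, or read RPSA or RPLP0 to RPLP2. RPS27L was left out. This gave 83 members of the 33538 genes listed, 31 of the small and 52 of the large subunit. The cells came from the H9 line, which is an established human embryonic stem cell line, with genotype WT, so that both copies of the enhancer HAR123 had the human sequence (hHAR123). Their differentiation was directed to neural progenitor cells (NPCs) over 2 days as adherent cells and 5 days under rotation, both with Dorsomorphin and SB431542, and 7 days after replating without these inhibitors, and the cells were collected before rosettes were selected. The study's methods describe independent clones of each genotype, and the clones of this library cannot be told apart in the counts. The study's other genotypes are not analysed here. A single library has no replicate, so the report gives no test and no p-value, and all intervals are 95% intervals of counting error alone.

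Each cytosolic ribosome holds a small and a large subunit, and each subunit is built from ribosomal RNA and a fixed set of proteins, mostly at a single copy per ribosome. The mRNAs of these proteins are among the most abundant of any dividing cell. Most of them begin with a C followed by a run of pyrimidines, the terminal oligopyrimidine (TOP) tract, through which their translation follows growth signals by way of mTORC1 and LARP1. A few members have a second gene. RPL22L1, RPL39L, RPL26L1, RPL7L1, RPL3L and RPL10L are the copies (paralogs) within the rule, and RPL3L is known from skeletal muscle and heart and RPL10L from the testis. Such copies could give ribosomes that differ in composition.

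The letters at the transcription start show how alike the members are. RefSeq start windows (GRCh38.p14) were at hand for 66 of the 83 members, in 82 windows of 300 bases. Windows were not at hand for 17 members, among them RPL39L, RPL7, RPL3L and RPS2. A run that starts with C at the first transcribed base and goes on with at least 4 further bases that are each C or T was present on the transcribed strand in 47 of the 82 windows (57.3%), against 1429 of all 35116 windows of the table (4.07%). By gene, 47 of 66 members (71.2%) had such a window, against 1404 of 27305 genes (5.14%). Below are 15 bases before and 15 bases from the start for abundant members (RPLP1, RPL41, RPS19, RPS12) and for several genes and copies of the pairs. RPL39 and RPL7L1 are shown without their partners, which had no window. Capitals mark the pyrimidine run that begins at the first transcribed base, and sequences run 5′ to 3′ on the transcribed strand.
RPLP1, chr15:69452803-69452832, plus strand: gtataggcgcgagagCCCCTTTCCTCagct
RPL41, chr12:56116618-56116647, plus strand: cggaacttcgcctttCTCTCggccttagcg
RPS19, chr19:41860240-41860269, plus strand: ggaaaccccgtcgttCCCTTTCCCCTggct
RPS12, chr6:132814554-132814583, plus strand: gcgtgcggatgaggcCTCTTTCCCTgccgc
RPL22, chr1:6199581-6199610, minus strand: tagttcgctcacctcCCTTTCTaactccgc
RPL22L1, chr3:170870181-170870210, minus strand: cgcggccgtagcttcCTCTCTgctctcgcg
RPL39, chrX:119791616-119791645, minus strand: ttcttccgccagcttCCCTCCTCTTCCTTT
RPL26, chr17:8383179-8383208, minus strand: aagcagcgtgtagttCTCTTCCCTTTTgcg
RPL26L1, chr5:172958714-172958743, plus strand: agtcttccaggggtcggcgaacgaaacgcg
RPL7L1, chr6:42879601-42879630, plus strand: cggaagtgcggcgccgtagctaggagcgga

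The run was 11 bases long in RPLP1 and RPS19, 10 in RPS12 and 5 in RPL41. RPS19 has a second window, at chr19:41860389-41860418, with no such run. In RPL39 it continued beyond the bases shown, to 19 bases in all. RPL22L1 carried a run of 6 bases beside 7 in RPL22. RPL26 had a run of 12 bases, whereas neither of the 2 windows of RPL26L1 began with C, and the start of RPL7L1 had no run either.

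The library was deep. Cells with 2000 to 10000 detected genes and a share of mitochondrial (MT-) transcripts below 0.1 were kept, which left 13925 of 14726 barcodes with 314660383 unique molecular identifiers (UMIs) and a median of 17900 UMIs a cell. Of these, 189 cells had an MT- share below 0.01 and were kept apart. The remaining cells formed 11815 forebrain NPC-like, 1815 contractile NPC-like (marked by smooth muscle genes such as TAGLN, the actin-binding transgelin, in clusters led by COL8A1 and GREM1 or by RYR2 and S100A16) and 106 differentiating-progenitor-like cells (with STMN2, DCX and NEUROD1). No member was among the 2000 genes used for clustering, and 0 members belong to the gene lists by which G1, S and G2/M were called. The classes differed in depth. Forebrain NPC-like cells had a median of 16812 UMIs, contractile NPC-like cells 46437 and differentiating-progenitor-like cells 13414. Values at matched depth are therefore given for the members' share and for departing members. The lists of genes outside the rule were compared between classes without matching for depth.

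Members made up 14.71% of all UMIs (14.70 to 14.71%), that is 46276877 UMIs. In this 3′ assay an mRNA molecule gives its UMI from the region near its poly(A) tail, so levels were expressed as UMIs per 1000000 UMIs (CPM) and were not divided by transcript length. The 10 highest members held 24.4% of the pool. RPS2 led with 4475 CPM, followed by RPLP1 (4419 CPM), RPL41 (4031 CPM), RPS19 (3918 CPM), RPS12 (3494 CPM), RPL10 (3179 CPM), RPL13 (3117 CPM), RPS23 (3101 CPM), RPS18 (3071 CPM) and RPS14 (3008 CPM). RPS2 and RPS23 sit at the mRNA entry channel and decoding centre of the small subunit, RPLP1 is an acidic protein of the stalk that recruits translation factors, and RPL41 is the smallest member. RPS19 is the member most often altered in Diamond-Blackfan anaemia. Single ribosomes need these proteins in fixed amounts, yet the mRNA levels spanned a wide range, from 4475 CPM for RPS2 to 561 CPM for RPS26 among the members without a copy in the rule and without a partner gene that shares exons.

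Of the 83 members, 81 reached 10 CPM. The copies were among the lowest members. RPL22L1 was found at 177 CPM, RPL7L1 at 88.7 CPM, RPL26L1 at 78.7 CPM and RPL39L at 49.5 CPM. RPL3L had 55 UMIs in 48 cells, or 0.175 CPM, and RPL10L had 0 UMIs, for which the highest level that a count of 0 allows is that of 3 UMIs in 314660383. RPL17 (80.0 CPM), RPL36A (308 CPM) and RPS10 (703 CPM) were lower than most members. The list of genes also holds the read-through genes RPL17-C18orf32, RPL36A-HNRNPH2 and RPS10-NUDT3, which share exonic bases with them (24.9%, 8.40% and 31.5% of the member's exonic bases in GENCODE version 44), and reads that fit both genes may not have been counted, so the levels of these 3 members are uncertain. RPL36, RPL26 and RPS15A also shared exonic bases with another listed gene of the same strand.

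**Figure D1:**
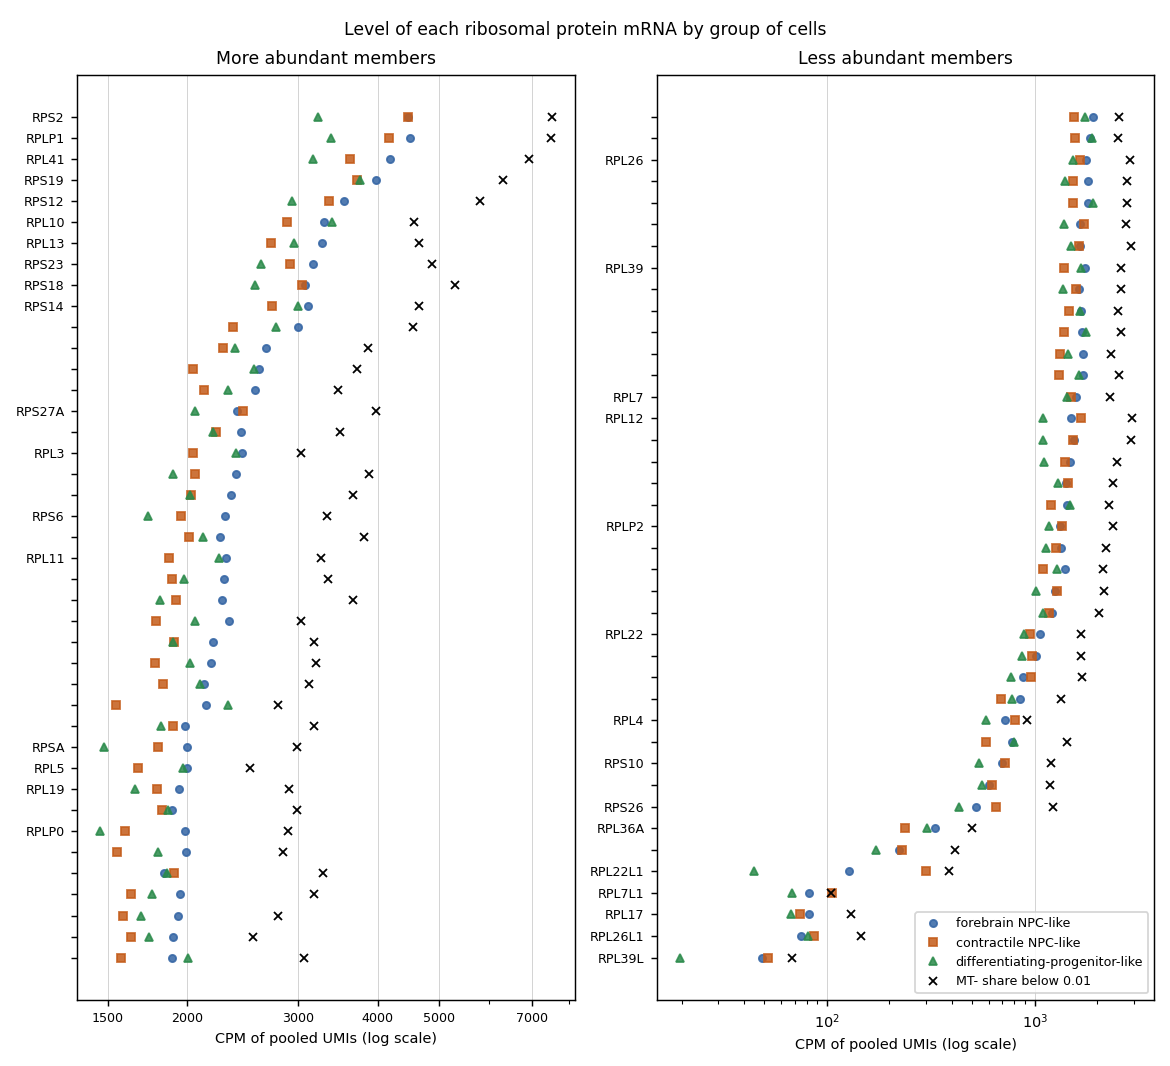
Level of each of the 81 members with at least 10 CPM, in CPM of pooled UMIs on a log axis, in forebrain NPC-like (circles), contractile NPC-like (squares) and differentiating-progenitor-like cells (triangles) and in cells with an MT- share below 0.01 (crosses). Members are ordered by their level over all kept cells and the highest 10 and others described in the text are labelled, the crosses lie to the right of the circles for every member, and RPL22L1 is the member whose symbols lie farthest apart, from 44.8 CPM in differentiating-progenitor-like to 386 CPM in cells with an MT- share below 0.01.

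The share of UMIs that fell on the members differed between classes by little when pooled over all depths and phases. It was 15.13% in forebrain NPC-like cells (15.13 to 15.14%), 13.48% in contractile NPC-like cells (13.47 to 13.49%) and 13.41% in differentiating-progenitor-like cells (13.35 to 13.46%). The ratio to forebrain NPC-like cells was 0.891 (0.890 to 0.892) for contractile and 0.886 (0.882 to 0.890) for differentiating-progenitor-like cells. Among single cells the share ranged more widely within a class than between them. The 5th and 95th percentiles of differentiating-progenitor-like cells were 6.09% and 22.7%, around a median of 13.7%. The small subunit kept its part of the pool, with 41.6 to 43.1% of the members' UMIs in every group of cells examined.

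The share moved with depth. Across the 13736 cells with an MT- share of at least 0.01, Spearman's rho between UMIs and the share was -0.47, as a description over cells of 1 library that share their source. In forebrain NPC-like cells the share went from 17.3% below 10000 UMIs to 12.2% above 50000 UMIs. Contractile NPC-like cells were lower than forebrain NPC-like cells at 15000 to 20000 UMIs (13.5% and 15.7%), nearly level with them at 20000 to 30000 UMIs (14.00% and 14.13%) and higher above that, at 30000 to 50000 UMIs (13.8% and 13.2%) and over 50000 UMIs (13.2% and 12.2%). The direction of this comparison thus differed between depths. Differentiating-progenitor-like cells had a lower pooled share than forebrain NPC-like cells in the 3 depth bins that held at least 20 of them. The values were 16.8% and 17.3% below 10000 UMIs, 13.4% and 17.3% at 10000 to 15000 UMIs, and 11.9% and 15.7% at 15000 to 20000 UMIs. These bins held 21, 46 and 23 differentiating-progenitor-like cells. Below 10000 UMIs the mean of per-cell shares went the other way, at 17.28% and 17.09%. MALAT1 and NEAT1 together made up 2.19% of UMIs in differentiating-progenitor-like and 0.973% in forebrain NPC-like cells, and their part in the lower share was not tested.

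**Figure D2:**
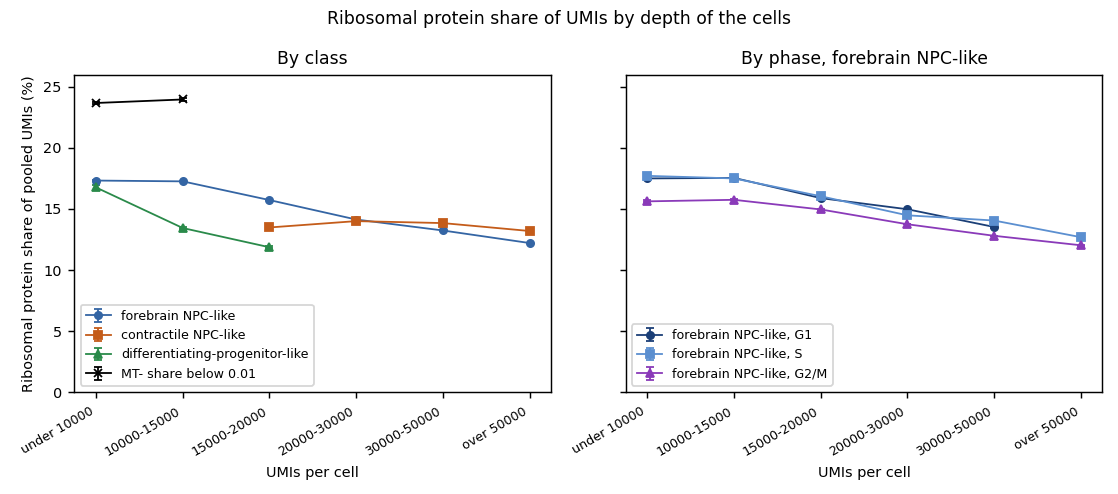
Share of pooled UMIs from ribosomal protein genes (%, vertical axis) in cells grouped by their UMIs (horizontal axis), by class on the left and by cell cycle phase within forebrain NPC-like cells on the right. Bars are 95% intervals of counting error, mostly smaller than the symbols, and groups with fewer than 20 cells are not drawn. The forebrain and contractile lines cross between 20000 and 50000 UMIs, and G2/M lies below G1 at every depth drawn for both.

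Pooled over all depths, the share stepped down from G1 to S to G2/M in both classes large enough to be divided. In forebrain NPC-like cells it was 16.55% in G1 (16.54 to 16.56%), 15.65% in S (15.65 to 15.66%) and 13.83% in G2/M (13.82 to 13.84%). In contractile NPC-like cells it was 14.89% in G1, 13.64% in S and 12.95% in G2/M. Their median depth rose over these phases, from 38702.5 to 40754.5 and 54096 UMIs, and their share by phase was not compared at matched depth. The ratio of G2/M to G1 in forebrain NPC-like cells was 0.836 (0.835 to 0.836). There 78 of 81 members were lower in G2/M, whereas 56.2% of the 10000 genes with at least 10 CPM were higher. The median ratio of these 10000 genes was 1.03. Cells in G2/M were also deeper, with a median of 21557 UMIs against 13470.5 in G1. At 20000 to 30000 UMIs the share was 14.97% in G1, 14.48% in S and 13.75% in G2/M, so that the ratio of G2/M to G1 rose to 0.918 and kept its direction. S and G1 were not ordered alike at all depths. The share in S was above that in G1 below 10000 UMIs (17.7% and 17.5%), at 15000 to 20000 UMIs (16.04% and 15.89%) and at 30000 to 50000 UMIs (14.1% and 13.5%), and below it in the other bins.

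**Figure D3:**
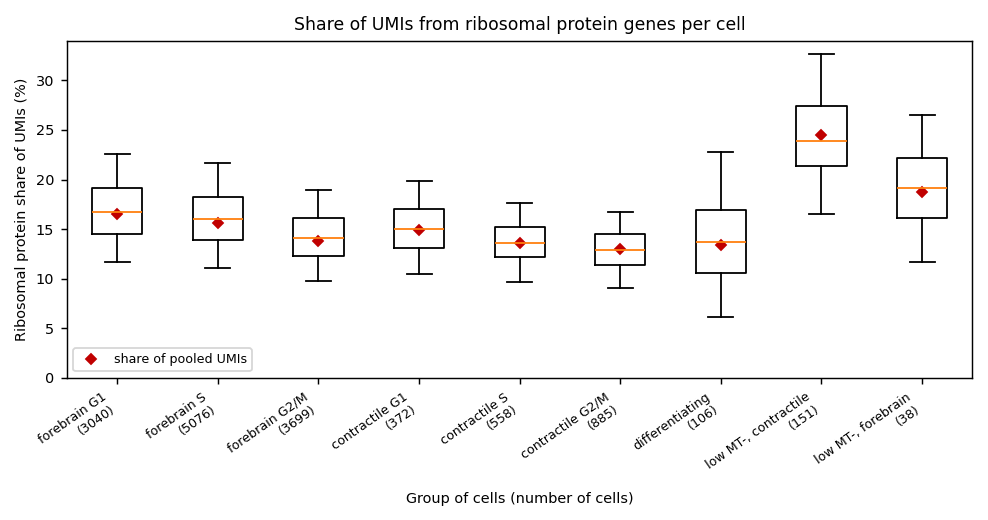
Share of UMIs from ribosomal protein genes per cell (%), by class and phase and, in the 2 boxes on the right, in cells with an MT- share below 0.01. Boxes span the quartiles, whiskers the 5th to 95th percentiles, lines are medians and diamonds the share of the group's pooled UMIs. Medians step down from G1 to G2/M in both classes, from 16.7% to 14.1% and from 15.05% to 12.93%, and the cells with an MT- share below 0.01 lie highest.

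The MT- share of a cell went with a modest change of the share over most of its range and with a large one at its lower end. Between 0.01 and 0.02 the members held 14.4% of UMIs, in 40 cells. Between 0.02 and 0.03 they held 13.3% of UMIs, and the share rose to 15.5% between 0.06 and 0.07 and was 14.8% between 0.09 and 0.1. Depth was not matched there, with a median of 20045 UMIs between 0.02 and 0.03 and of 16227 between 0.06 and 0.07. In the 189 cells below 0.01 the share was 23.43% (23.37 to 23.49%), against 14.65% (14.65 to 14.66%) in the others, a ratio of 1.60 (1.59 to 1.60). MT- transcripts are themselves part of the total, and without them in the denominator the ratio was 1.52. The cells below 0.01 were shallow, with a median of 9536 UMIs. Their share was still higher at matched depth, at 23.7% against 17.3% below 10000 UMIs and 24.0% against 17.2% at 10000 to 15000 UMIs. Class was not matched there, since 626 of the 660 and 3803 of the 3860 other cells were forebrain NPC-like. Among forebrain NPC-like cells the share was 18.8% in the 38 cells below 0.01 (median 8313 UMIs). It was 17.3% in the 626 cells above that limit with fewer than 10000 UMIs.

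These 189 cells were mostly of 1 cluster. Cluster 9, named contractile NPC-like, held 149 of them and 19 further cells. Summed over the 9 contractile markers, the level was 15651 CPM in the 151 contractile NPC-like cells with an MT- share below 0.01. It was 15029 CPM in contractile NPC-like cells above that limit and 1833 CPM in forebrain NPC-like cells. All 9 markers had UMIs in each of these groups. The contractile clusters were named from this same list, so the gap to forebrain NPC-like cells follows from the naming. The members' share was 24.5% in the contractile and 18.8% in the forebrain NPC-like cells below 0.01. The 19 cells of cluster 9 with an MT- share of 0.01 or more had 22.5%, with a summed marker level of 9592 CPM, below that of the contractile NPC-like cells on either side of the limit. The nuclear RNA MALAT1 was at 8947 CPM below 0.01 and 10677 CPM above, and NEAT1 at 73.8 and 326 CPM. Class moves with these values, since above the limit NEAT1 was at 974 CPM in contractile and 69.7 CPM in forebrain NPC-like cells, and MALAT1 at 13030 and 9661 CPM. The part of nuclear RNA and of the MT- share in these values was not tested.

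The rise in cells with a low MT- share was spread over nearly the whole group. All 81 members had a ratio above 1, whereas 33.6% of all 10000 genes did. By CPM 64 members were at least 1.5-fold higher, where 11.5% of all genes were. The median ratio of the members was 1.62 and that of all genes 0.745. RPS26, which takes part in start codon context recognition, and RPL22L1 had the highest ratios, 2.20 each, and RPL7L1 (1.18), RPL4 (1.24), RPL3 (1.30) and RPL5 (1.32) the lowest. RPL5 and RPL11 form a particle with 5S ribosomal RNA that binds MDM2 when assembly fails, and their ratios were 1.32 and 1.49. Relative to the pool, no member departed by 1.5-fold in either direction, where 70.3% of all genes did. Of all genes, 69.9% were lower and 0.470% higher on this scale. The pool itself rose 1.60-fold, so a gene with an unchanged CPM falls below the lower limit. The contrast with all genes therefore does not show that the members are unusually alike. At 10000 to 15000 UMIs, 25 of the 81 members were at least 1.5-fold higher by CPM, where 17.0% of all genes were, and all 81 still had a ratio above 1. RPL22L1, RPL39L and RPS26 then departed from the pool by 1.5-fold or more (67.6% of all genes did so), in a comparison of 62 cells with 3860 cells, of which 3803 were forebrain NPC-like. Class moved with this comparison, since 151 of all 189 cells with a low MT- share were contractile NPC-like. Per 10000 member UMIs, RPL22L1 was at 17.4 in those 151 cells and 22.2 in contractile NPC-like cells above the limit, and at 11.0 and 8.42 in forebrain NPC-like cells.

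To find single members that depart from the group, each member's share of the members' UMIs was compared between groups of cells. A gene was called departing at a ratio of at least 1.5 or its inverse. Most members kept close to the pool. Between 0.8 and its inverse lay 75 of 81 members in contractile against forebrain NPC-like cells, 79 in differentiating-progenitor-like against forebrain NPC-like cells, 80 in S against G1, 78 in G2/M against G1 and 77 in cells with a low MT- share against the rest. Of all genes, 42.1%, 40.5%, 68.6%, 47.9% and 17.9% lay within these limits of the pool in the same order. The members make up the pool and other genes do not, so these shares are no even measure of how alike the members are. In contractile against forebrain NPC-like cells 1 member departed, RPL22L1, where 34.0% of all genes did. In differentiating-progenitor-like cells, 88.7% of them called G1, RPL22L1 and RPL39L departed from forebrain NPC-like cells of all phases (37.0% of all genes). RPL39L alone departed in S (13.3% of all genes) and in G2/M (21.1% of all genes) against G1. Both are copies, and the 77 members that are no copy departed in none of these 5 comparisons at 1.5-fold. Just inside the limit lay RPL7L1 (1.44) and RPS26 (1.41) in contractile NPC-like cells and RPL22L1 (1.41) in G2/M.

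**Figure D4:**
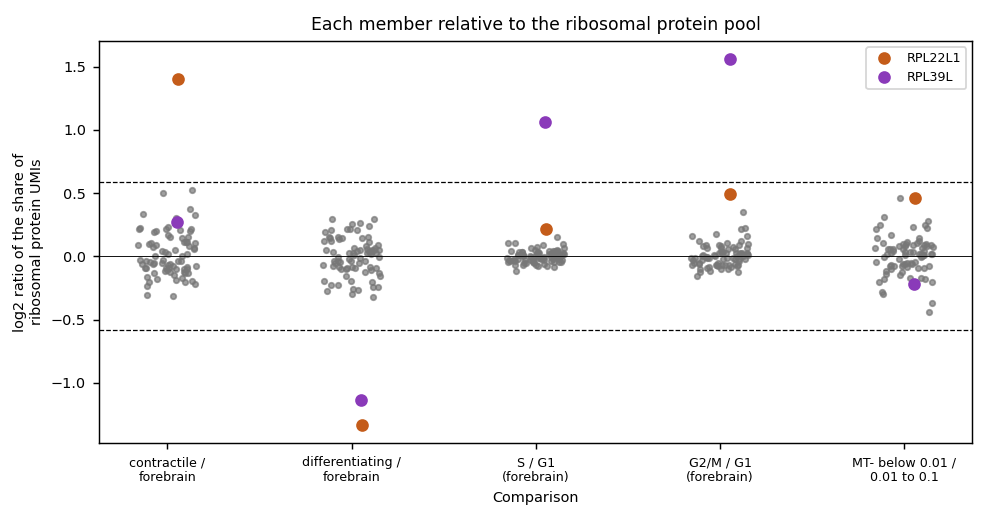
Ratio of each of the 81 members' share of ribosomal protein UMIs between 2 groups of cells, on a log2 scale, for 5 comparisons, with RPL22L1 and RPL39L in colour and a small sideways scatter for legibility. Dashed lines mark a ratio of 1.5 and its inverse. All other members lie between the lines in each comparison.

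RPL22L1, at chr3:170864875-170870208, is the copy of RPL22, at chr1:6185020-6209389. Both encode an RNA-binding protein of the large subunit, and loss of RPL22 is known to raise RPL22L1. RPL22L1 was at 127 CPM (126 to 129 CPM) in forebrain NPC-like cells, 299.6 CPM (296 to 303 CPM) in contractile NPC-like cells and 44.8 CPM (35.1 to 56.3 CPM, from 73 UMIs) in differentiating-progenitor-like cells. RPL22 was at 1062, 946 and 889 CPM in the same order, so it followed the pool. RPL22L1 therefore made up 10.7% (10.6 to 10.8%) of the UMIs of the pair in forebrain NPC-like cells, 24.1% (23.8 to 24.3%) in contractile NPC-like cells and 4.79% (3.78 to 5.99%) in differentiating-progenitor-like cells. At 20000 to 30000 UMIs it made up 11.3% (11.1 to 11.5%) in forebrain and 16.6% (15.8 to 17.5%) in contractile NPC-like cells.

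Relative to the pool and to forebrain NPC-like cells, RPL22L1 was 2.64-fold higher (2.60 to 2.69) in contractile NPC-like cells and at 0.397 (0.311 to 0.499) in differentiating-progenitor-like cells. At 20000 to 30000 UMIs the first value fell to 1.63 (1.53 to 1.73) and RPL22L1 was still the member that departed (29.0% of all genes did). At 10000 to 15000 UMIs the second was 0.311 (0.184 to 0.491), from 18 UMIs in 46 cells. Within contractile NPC-like cells RPL22L1 also went with the cycle, at 216 CPM in G1, 301 CPM in S and 326 CPM in G2/M. There RPL22L1 and RPL39L were the members that departed in S (19.3% of all genes) and in G2/M (20.6% of all genes) against G1. Depth also moved with phase, and among contractile NPC-like cells with 20000 to 30000 UMIs the levels were 195.4 CPM (176 to 216 CPM) in G1, 190 CPM (172 to 209 CPM) in S and 235 CPM (212 to 260 CPM) in G2/M, so that the difference between S and G1 was not detectable there. In forebrain NPC-like cells G1, S and G2/M had 115, 126 and 135 CPM. The part of depth in the levels of RPL22L1 was not tested further. By cluster, RPL22L1 spanned from 3.34 per 10000 member UMIs in cluster 11 to 22.2 in cluster 4, a range of 6.66-fold and the widest of the 81 members over 10 clusters. The 8 forebrain NPC-like clusters lay between 6.75 and 10.5 per 10000.

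RPL39L, at chr3:187120948-187180908, is the copy of RPL39, at chrX:119786504-119791630, a small protein of the exit tunnel. RPL39L is best known from male germ cells and from embryonic stem cells. It was at 24.7 CPM (23.2 to 26.2 CPM) in G1, 48.6 CPM (47.2 to 50.1 CPM) in S and 60.8 CPM (59.1 to 62.5 CPM) in G2/M of forebrain NPC-like cells. RPL39 fell over the same phases, from 1955 to 1806 and 1565 CPM. RPL39L accordingly was 1.246% of the UMIs of the pair in G1, 2.62% in S and 3.74% in G2/M. Relative to the pool it was 2.08-fold higher (1.95 to 2.23) in S and 2.95-fold higher (2.76 to 3.15) in G2/M than in G1.

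RPL39L differed between phases in contractile NPC-like cells too. In contractile NPC-like cells it was at 28.0 CPM in G1, 57.5 CPM in S and 57.3 CPM in G2/M. Depth moved with phase, and at 20000 to 30000 UMIs the ratio of G2/M to G1 in forebrain NPC-like cells relative to the pool was 2.23 (1.92 to 2.62) and that of S to G1 was 1.79 (1.53 to 2.10). In that bin RPL39L was the member that departed between G2/M and G1 (18.5% of all genes did). Differentiating-progenitor-like cells, of which 88.7% were called G1, had 19.6 CPM (13.4 to 27.7 CPM, from 32 UMIs), near the 24.7 CPM of forebrain NPC-like cells in G1. Relative to the pool and to all forebrain NPC-like cells, RPL39L was at 0.456 (0.312 to 0.644) there. Those forebrain NPC-like cells were of all phases. RPL39L was 1.158% (0.793 to 1.63%) of the UMIs of its pair in differentiating-progenitor-like cells, beside 1.246% in forebrain NPC-like cells in G1. The part of phase in the value of 0.456 was not tested. The level of RPL39L was 26.9 CPM in cluster 1, 79.8% of whose cells were in G1, and 61.5 CPM in cluster 5, 99.8% of whose cells were in G2/M.

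**Figure D5:**
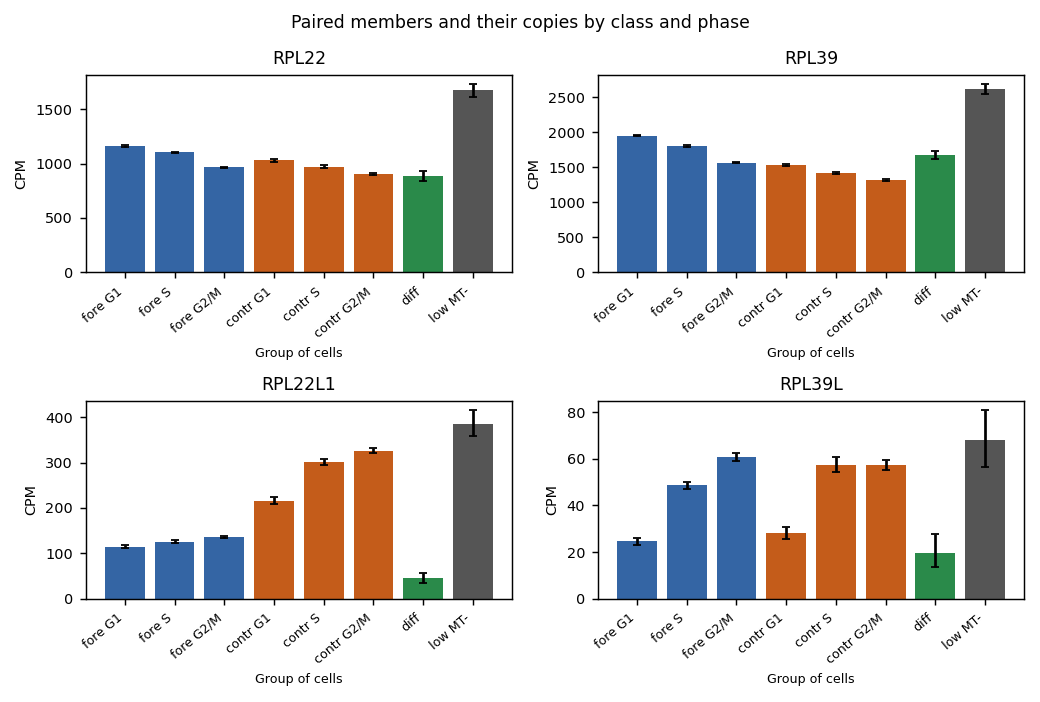
Levels of RPL22 and its copy RPL22L1 (left column) and of RPL39 and its copy RPL39L (right column, copies in the lower row), in CPM, by phase in forebrain (blue) and contractile NPC-like cells (orange), in differentiating-progenitor-like cells (green) and in cells with an MT- share below 0.01 (grey). Bars are levels of pooled UMIs with 95% intervals of counting error. RPL22 and RPL39 fall from G1 to G2/M while both copies are higher in G2/M than in G1.

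RPL26L1 made up 4.07% of the UMIs of RPL26 and RPL26L1 in forebrain NPC-like cells, and 4.97% and 5.08% in the contractile and differentiating classes. RPL7L1, whose product acts in ribosome assembly rather than in the finished subunit, made up 4.95%, 6.56% and 4.54% of its pair. Counts of RPL3L were too few to compare, with 29, 24 and 2 UMIs. RPS27L and RPL36AL lie outside the rule but pair with the members RPS27 and RPL36A. RPL36AL was 41.0% of its pair in forebrain and 60.6% in contractile NPC-like cells, with 231 and 367 CPM, and was at least 1.5-fold higher by CPM (11.3% of all genes were). At 20000 to 30000 UMIs RPL36AL was 42.4% of its pair in forebrain and 54.4% in contractile NPC-like cells. RPS27L, a known target of p53, was at 644 CPM in contractile NPC-like cells in G1, against 273 CPM in S and 243 CPM in G2/M. In forebrain NPC-like cells it was highest in cluster 10, at 862 CPM against 181 to 271 CPM in the other 7 clusters of that class. Cluster 10 was led by MIR34AHG and PINCR among other genes, which p53 is also known to induce.

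Over 10 clusters with at least 50 cells of an MT- share of 0.01 or more, 7 of the 81 members had a highest share of the pool at least 1.5-fold above their lowest. Among them were RPL22L1 (6.66), RPL39L (3.17), RPS26 (1.86), RPL26L1 (1.74), RPL7L1 (1.69) and RPL12 (1.52). Of all 10000 genes with at least 10 CPM, 90.4% did so. The median member spanned 1.19-fold and the median gene 2.12-fold. These ranges make no allowance for counting error. Clusters 10 and 11 held 1792520 and 1630454 UMIs, so a gene near 10 CPM had few UMIs there. Other genes also carry the pool's own differences between clusters, so the values of all genes do not show how steady the members were. RPS26, RPL7L1 and RPL12 were highest in cluster 4, which holds most contractile NPC-like cells. RPL12 was at 1.26 relative to the pool in contractile against forebrain NPC-like cells.

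The members with other roles given here lay within 1.5-fold of the pool between classes, several of them below it in differentiating-progenitor-like cells. The stalk proteins RPLP0, RPLP1 and RPLP2 had ratios to the pool of 0.90, 1.04 and 1.145 in contractile NPC-like cells and of 0.83, 0.85 and 1.00 in differentiating-progenitor-like cells. RPS6, the substrate of S6 kinase, had 0.96 and 0.85, and RPSA, also known as the laminin receptor, 1.01 and 0.84. RPS27A, made as a fusion with ubiquitin, had 1.15 and 0.97. RPL19, the reference of the study's qPCR, had 1.04 and 0.96, and 0.99 in both S and G2/M against G1. By CPM, however, RPL19 was at 0.83 in G2/M against G1 and at 1.53 in cells with a low MT- share. Of the 15 members linked to Diamond-Blackfan anaemia, none was 1.5-fold higher or lower by CPM between classes or phases, where 36.1% (contractile), 37.4% (differentiating), 12.6% (S) and 12.8% (G2/M) of all genes were. In cells with a low MT- share 12 of the 15 were at least 1.5-fold higher, where 11.5% of all genes and 64 of 81 members were. Their median ratio was 0.869 for the contractile and 0.905 for the differentiating class, against 0.876 and 0.893 for all members and 0.880 and 0.898 for all genes.

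The spread of single members between cells of a class was compared with that of sampling. Each of 11704 forebrain NPC-like cells was thinned to 1000 member UMIs, and the variance of each member was divided by the multinomial one. For the 76 members with a mean of at least 1 UMI, this ratio ran from 1.01 to 1.39 with a median of 1.08, and 9 members reached 1.2. RPL41 and RPS19 had the highest ratio, 1.39 each, and RPL13A and RPS2 (1.31 each) and RPL10 (1.30) were also among these 9. RPL22L1 had a ratio of 1.247 at a mean of 0.824 UMIs. The ratio depends on a member's mean, so a low ratio of a low member does not show that it was stable, and the cells include all phases.

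Genes of translation outside the rule were read beside the members. FAU, which encodes a small subunit protein as a fusion with a ubiquitin-like sequence, had ratios by CPM of 1.06 in contractile and 0.979 in differentiating-progenitor-like against forebrain NPC-like cells, 0.846 in G2/M against G1 and 1.74 in cells with a low MT- share. RACK1, a scaffold protein on the small subunit, had ratios of 0.964, 0.882, 0.790 and 1.47 in the same comparisons. EEF1A1 and 14 further translation and TOP genes with at least 10 CPM had a median ratio of 0.821 in G2/M, near the 0.836 of the members, but of 1.27 in cells with a low MT- share, below the 1.62 of the members. In that comparison 3 of the 15 were at least 1.5-fold higher, where 11.5% of all genes were. EEF1G was at 3.21 CPM and was not read.

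Genes of ribosome production, mostly assembly factors but with MYC and MYCN among them, were read as a list of 19 with at least 10 CPM. In differentiating-progenitor-like cells 14 of the 19, MYC and MYCN included, were at least 1.5-fold lower by CPM, where 25.8% of all genes were and 2 of 81 members, and their median ratio was 0.532 beside 0.893 for the members. NPM1, a nucleolar chaperone, was at 837 CPM against 1458 CPM in forebrain NPC-like cells, NCL at 503 against 945 CPM, FBL, the methyltransferase of ribosomal RNA, at 69.3 against 142 CPM, and DKC1, the pseudouridine synthase, at 29.4 against 81.1 CPM. In G2/M against G1, 4 of the 19 were at least 1.5-fold higher (8.88% of all genes) and none lower, and in S 1 was higher (9.79% of all genes). In contractile NPC-like cells 4 were higher (11.3% of all genes) and 1 lower (24.8%). In cells with a low MT- share 4 were higher (11.5% of all genes) and 2 lower (43.8%), with a median ratio of 1.22 beside 1.62 for the members. MYC, a transcription factor that drives ribosome production, was at 54.3 CPM in contractile and 12.5 CPM in forebrain NPC-like cells, and MYCN at 7.18 and 34.2 CPM. Proteins of the mitochondrial ribosome are a separate set. Of 75 with at least 10 CPM, 41 were at least 1.5-fold higher in cells with a low MT- share (11.5% of all genes), with a median ratio of 1.57. In contractile NPC-like cells 5 were higher (11.3% of all genes) and 1 lower (24.8%). In differentiating-progenitor-like cells 2 were higher (11.6% of all genes) and 18 lower (25.8%), which is near the share of all genes.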

How the data were processed

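The authors deposited raw UMI counts per gene and barcode, without normalization, made from reads of a Chromium 3′ HT library with Cell Ranger 7.0.1 at default settings on GRCh38. This version counts intronic reads by default, and the annotation version is not given in the sources used here. All barcodes carried 1 suffix, so loading wells could not be told apart. Kept cells had 2000 to 10000 genes and an MT- share below 0.1. Clustering (scanpy 1.11.5, leidenalg 0.10.2) used 2000 variable genes without members, 30 principal components, 20 neighbours and resolution 0.5. Clusters were named from marker lists, by limits set after the clusters had been seen. Contractile and differentiating names needed 3 or more markers at 20 CPM and 3-fold above the other cells. The forebrain name went to remaining clusters with 3 or more forebrain and 3 or more progenitor markers at 50 CPM. Phases came from the 43 S and 54 G2/M genes shipped with Seurat. The automatic threshold of Scrublet marked just 2 barcodes, too few to be of use, and doublets were therefore left in.

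Counts were summed over cells. Shares carry Clopper-Pearson and ratios exact conditional intervals. The call of departure used genes with at least 10 CPM and a limit of 1.5-fold. No test between groups was possible with 1 library. Named were the 10 highest members, members below 10 CPM, departing members (up to 6 a comparison), pairs of genes and copies, members with particular roles, and lists of genes outside the rule. Other members are named as the highest or lowest of a comparison and were chosen after their values were seen. The members, lists and tests were chosen with earlier results of these data known. Gene spans are from GENCODE version 44 and start windows from RefSeq. Some genes are not reported here.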

Additional observations from a re-analysis of the deposited data

Results flagged for a closer look

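Barcodes outside the limits were used in no comparison, and they held UMIs of members far above the level of 3 counts that a count of 0 allows. The share of their pooled UMIs was 8.31% in 520 barcodes with fewer than 2000 genes, 12.9% in 94 barcodes with more than 10000 genes and 7.74% in 430 barcodes with an MT- share of 0.1 or more. Among the 520, the 133 with an MT- share below 0.01 stood at 17.6% and the 387 others at 5.97%.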

How the results depend on the processing

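No paired analysis was possible because there was 1 library and no test. Every ratio of the members' share kept its direction under each alternative listed here (the comparison of contractile with forebrain NPC-like cells turned in cells over 30000 UMIs, and S was above G1 in 3 of the 5 depth bins that held both, as given above), and all lay within 1.5 times the reported value, although most moved by more than the narrow counting interval. For contractile over forebrain NPC-like cells (0.891) the values were 0.870 as a mean of per-cell shares, 0.868 thinned to 5000 UMIs, 0.894 with ribosome components outside the rule added, 0.8896 without the highest 8% of Scrublet scores, 0.903 with members allowed among variable genes (0 were then selected), 0.895 at resolution 1.0 and 0.991 at 20000 to 30000 UMIs. For differentiating-progenitor-like cells (0.886) they were 0.878 without MT- UMIs, 0.881 thinned, 0.903 without high scores, 0.894 with members allowed, 0.893 at resolution 1.0 and 0.779 at 10000 to 15000 UMIs. For S over G1 (0.946) they were 0.944 without MT- UMIs, 0.9546 as a mean of cells, 0.9548 thinned, 0.947 without high scores, 0.9408 with members allowed, 0.9414 at resolution 1.0 and 0.967 at 20000 to 30000 UMIs. For G2/M over G1 (0.836) they were 0.832 without MT- UMIs, 0.8429 as a mean of cells, 0.8433 thinned, 0.838 without high scores, 0.833 with members allowed, 0.835 at resolution 1.0 and 0.918 at 20000 to 30000 UMIs. For an MT- share below 0.01 (1.60) they were 1.52 without MT- UMIs, 1.51 as a mean of cells, 1.54 thinned, 1.59 without high scores, 1.39 at 10000 to 15000 UMIs, 1.82 within contractile and 1.24 within forebrain NPC-like cells. The ratios within classes were not matched for depth. Median UMIs below and above the limit were 9595 and 46437 in contractile and 8313 and 16812 in forebrain NPC-like cells. The share over all kept cells (14.7%) was 14.6% in all barcodes, 15.50% without MT- UMIs and 15.53% as a mean of cells. The settings on matched depth and within classes were chosen after seeing the data. The cause of these shifts was not tested.

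At a limit of 2-fold the same members departed in each of the 5 comparisons. With a minimum of 50 CPM, which RPL39L (49.5 CPM) does not reach, 1 member departed in differentiating-progenitor-like cells and 0 in S and in G2/M against G1. Thinned to 5000 UMIs, RPL7L1 joined RPL22L1 in contractile NPC-like cells, 2 members in all, and 2 (RPL22L1 and RPS26) departed in cells with a low MT- share. For these settings the share of all genes that departed was not computed. Counts limit RPL22L1 and RPL39L in differentiating-progenitor-like cells, with 73 and 32 UMIs.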
